A study of Solanum tuberosum with 11 samples.

Results

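The late phase of the response to NG was described here: the change in transcript levels between the condition that the deposited table calls NG 7-Days and the one it calls NG 5-Days. Its members were all transcripts on the table's lines for that pair, 35089 of the 35091 transcripts in all, after 2 lines marked HIDATA were dropped. The table marks 19909 of them as tested, 15136 as NOTEST and 44 as LOWDATA. The plant was potato (Solanum tuberosum), cultivar Atlantic, and the RNA was that of periderm discs with the apical bud, taken from dormant commercial greenhouse minitubers of 3 to 5 g. By the labels, each whole tuber received an injection of 5 µl dimethyl sulfoxide (DMSO), either with 10 µg of NG, which the labels spell 1-(alpha-ethylbenzy)-3-nitroquanidine, or, for the zero-time controls, without it.

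The labels list 3 zero-time DMSO libraries, 3 NG libraries at day 1, 2 at day 4 and 3 at day 7. No label names a day 5, so NG 5-Days was kept under the table's name and not equated with the day 4 libraries. Every tuber of both conditions compared had received NG, and no DMSO library of a later time is among the labels, so an effect of NG and one of elapsed time cannot be told apart. The table holds 1 value per condition and none per library. No spread between libraries could therefore be computed, and the sources used here do not say how many libraries stand behind a value. The errors below are those implied by the authors' test, the ratio of the deposited log2 fold change to the deposited statistic.

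After harvest a potato tuber passes through a dormant period in which its buds do not grow, even where conditions would allow growth. Cytokinins, plant hormones that promote cell division, are among the signals known to end this dormancy, and nitroguanidines of this kind have been studied as synthetic cytokinins on minitubers. The periderm is the corky skin of the tuber, and the apical bud is the one that normally sprouts first. None of the table's identifiers matched the reference gene table, so no gene has a name or a known role here, the tissue's marker genes could not be checked, and transcripts are described by level, size of change, locus length and position. In discs that mix cell types, fewer cells of a type and less RNA per cell cannot be told apart.

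Between the late conditions, the authors' deposited table calls 502 transcripts higher and 367 lower (adjusted p under 0.05). These are 2.52% and 1.84% of the 19909 tested, 4.36% in both directions together. The rises were the larger changes. On the log2(level + 1) scale, on which a change of 1 is 2-fold for an abundant transcript and less than the true ratio for a scarce one, their median was 1.05 (interquartile range 0.85 to 1.33), and that of the falls was -0.93 (interquartile range -1.06 to -0.83). On the deposited log2 fold change, with no pseudocount, the medians were 1.57 over the 499 rises with both levels above 0 and -1.07 over the falls. The median implied standard error was 0.39 for these rises and 0.30 for the falls. The change of a typical tested transcript was small, with a median of -0.012 and a median absolute size of 0.17 on the log2(level + 1) scale.

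Size separated the directions further. Of the called rises, 254 lay between 2-fold and 4-fold on the log2(level + 1) scale, 25 between 4-fold and 8-fold and 1 beyond. Of the called falls, 128 lay between 2-fold and 4-fold and 0 beyond. Without regard to the test, 778 transcripts were at least 2-fold higher (2.22% of 35089) and 181 at least 2-fold lower (0.516%). Among tested lines the shares were 1.69% and 0.743%. Called transcripts made up 2.64% of the summed level in NG 7-Days and 2.70% in NG 5-Days. Which direction had the majority of calls depended on the scale of the test. With errors solved for each condition and calls made at the highest p called, rises were 57.5% of the calls on the plain log2 scale and 45.1% on log2(level + 5), 385 rises and 469 falls.

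**Figure D1:**
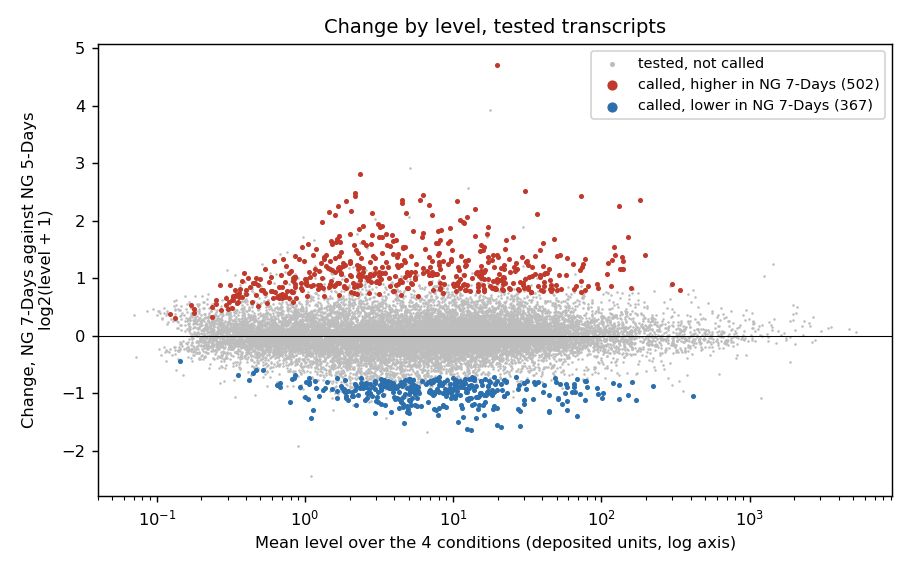
Change on the log2(level + 1) scale, NG 7-Days against NG 5-Days, for each tested transcript against its mean level over the 4 conditions (log axis); red points are the 502 called rises, blue points the 367 called falls and grey points the rest. The rises reach 4.71 and the called falls -1.64, and no called transcript has a mean level of 500 or more.

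The greatest rise among called transcripts that reached a level of 5 was that of PGSC0003DMG400011438, at chromosome 10, 43787803 to 43788901. In the authors' deposited table it stood at 39.1 in NG 7-Days, against 0.531 in NG 5-Days. That is a change of 4.71 on the log2(level + 1) scale and a deposited log2 fold change of 6.20 (implied standard error 0.62, adjusted p listed as 0). In time order its deposited levels were 24.3 in Controls, 15.3 in NG 1-Day, then 0.531 in NG 5-Days and finally 39.1 in NG 7-Days, so the NG 5-Days value was the low one. The transcript before it on the chromosome, at 43785290 to 43786469 and 1333 bases away, was also called higher. The authors' deposited table lists it at 0.459 in NG 7-Days and at 0 in NG 5-Days (adjusted p = 0.0499).

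PGSC0003DMG400015531, at chromosome 11, 42031018 to 42031675, had the next greatest rise. The authors' deposited table has it at 6.50 in NG 7-Days, against 0.0680 in NG 5-Days (log2 fold change 6.58, implied standard error 1.49, adjusted p = 0.000427). It was at 2.76 in Controls and 0.118 in NG 1-Day, so here both earlier NG conditions were low. The 10 rises that followed by the same rule had changes of 2.34 to 2.52 on the log2(level + 1) scale. One of them, at chromosome 9, 47542989 to 47543392, swung widely: its deposited levels were 85.4 in Controls, 585 in NG 1-Day, then 8.66 in NG 5-Days and finally 48.8 in NG 7-Days. It was singled out after its values were seen.

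The named falls had their highest level in NG 5-Days. PGSC0003DMG400037894, at chromosome 4, 57478813 to 57480121, fell to 8.91 in NG 7-Days, against 29.8 in NG 5-Days; the authors' deposited table gives a log2 fold change of -1.74 (implied standard error 0.30, adjusted p = 5.85e-07). Its deposited levels of 6.89 in Controls and 7.13 in NG 1-Day were close to each other and to that of NG 7-Days. PGSC0003DMG400004748, at chromosome 8, 39389127 to 39389711, fell to 9.86 in NG 7-Days, against 32.3 in NG 5-Days (log2 fold change -1.71, implied standard error 0.37, adjusted p = 0.000171 in the authors' deposited table). It was at 5.64 in Controls and 1.47 in NG 1-Day. Another of the 12 greatest falls lay nearby, at chromosome 8, 39400869 to 39401698, with deposited levels of 16.7 in NG 7-Days and 52.3 in NG 5-Days. Changes of the falls ranked 3 to 12 ran from -1.59 to -1.38 on the log2(level + 1) scale.

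The sets as wholes showed the same shapes in their levels. For the 502 rises the median deposited level was 4.98 in Controls, 3.46 in NG 1-Day, then 2.16 in NG 5-Days and finally 6.77 in NG 7-Days. For the 367 falls it was 4.85, 2.23, 14.3 and 7.04 in the same order. The rises thus started from a low point in NG 5-Days, and the falls from a high point. On the log2(level + 1) scale the rises had a median difference from Controls of 0.46 in NG 7-Days and -0.63 in NG 5-Days. Those called lower had one of 0.52 in NG 7-Days and 1.47 in NG 5-Days. Against a tested-transcript median of 0.032 in NG 7-Days and 0.011 in NG 5-Days, both sets stood above Controls at the last time. These differences share the NG 5-Days and NG 7-Days values that chose the sets, and are a description.

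**Figure D2:**
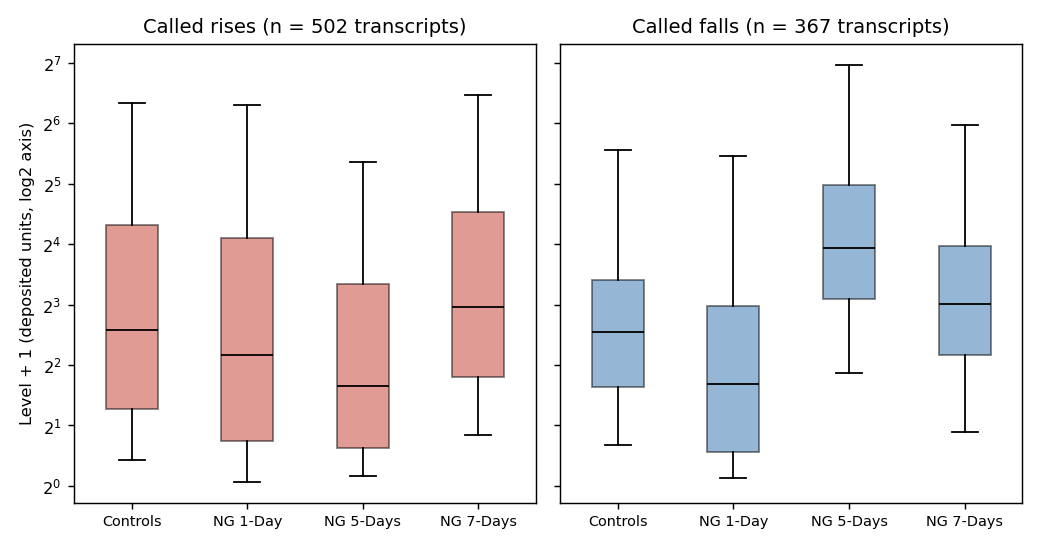
Deposited level plus 1 (log2 axis) of the called rises (left) and called falls (right) in each of the 4 conditions of the table, in time order; boxes span the quartiles, lines mark medians and whiskers run from the 5th to the 95th percentile of transcripts. The rises have their lowest median, 2.16, in NG 5-Days, where the falls have their highest, 14.3.

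One comparison of the table, NG 1-Day against Controls, uses neither late condition. Both called sets were lower there. Of the 434 rises tested in it, 11 were called lower and 0 higher in the authors' deposited table, and of the 316 falls tested, 51 were called lower and 0 higher. That is 2.53% and 16.1%, beside 0.525% of the 18493 late-tested transcripts that were tested there too, and 1.03% of all 19517 tested in that comparison. For higher calls the share was 0.0256% of 19517. At an unadjusted p under 0.05 in the authors' deposited table, 52 of the rises were lower and 3 higher, and 103 of the falls were lower and 0 higher. The median change from Controls to NG 1-Day on the log2(level + 1) scale was -0.31 for the rises and -0.65 for the falls, beside -0.018 over the late-tested transcripts. Over the 15986 transcripts above 1 in every condition, Controls lay a median of 0.096 (log2) from the mean of NG 1-Day and NG 7-Days. The distance was 0.13 from the mean of NG 1-Day and NG 5-Days and 0.14 from NG 1-Day alone. A mean of 2 conditions can lie closer than 1 condition through averaging, so these distances do not by themselves show a relation. The Controls value may still not be free of a relation to the NG 7-Days value that helped to choose the sets. The part of such a relation in the lower NG 1-Day levels was not tested.

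Calls were spread unevenly over level. By the mean level over the 4 conditions, transcripts under 1 had 94 rises and 15 falls among 3275 tested, 2.87% and 0.458%. Those from 1 to 5 had 171 rises and 120 falls (3.29% and 2.31% of 5198). From 5 to 20 the falls outnumbered the rises, with 129 rises and 168 falls (1.98% and 2.58% of 6522). From 20 to 100 there were 90 rises and 54 falls (2.30% and 1.38% of 3908), and from 100 upward 18 rises and 10 falls (1.79% and 0.994% of 1006). The balance depended on how the classes were set. By the level in Controls, the class from 5 to 20 had 132 rises and 131 falls (2.08% and 2.06% of 6355). That from 1 to 5 had 164 and 154 (3.16% and 2.96% of 5196), and that under 1 had 87 and 36 (2.52% and 1.04% of 3453). From 20 upward the rises kept their majority. The majority of falls was also one of calls: at mean levels of 5 to 20, 1.47% were at least 2-fold higher on the log2(level + 1) scale and 0.935% lower.

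The deposited test was least sensitive at low levels. The median implied standard error was 0.65 (log2) under 1, 0.42 from 1 to 5, 0.29 from 5 to 20, 0.26 from 20 to 100 and 0.30 from 100 upward. At the highest p called, 0.00296, such an error asks for a 3.85-fold change in the lowest class and a 1.71-fold change from 20 to 100. None of the 168 tested transcripts with a mean level of 500 or more was called by this test, and 1 had an unadjusted p under 0.05, a higher one.

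The 18 rises with a mean level of at least 100 ran from 0.80 to 2.37 on the log2(level + 1) scale, and the 10 falls from -1.11 to -0.80. The most abundant call was a fall at chromosome 7, 52915625 to 52916171, with a level of 336 in NG 7-Days, against 692 in NG 5-Days; the authors' deposited table gives a log2 fold change of -1.04 (implied standard error 0.27, adjusted p = 0.00333). A steeper rise lay at chromosome 5, 7707920 to 7711850, at 295 in NG 7-Days, against 60.9 in NG 5-Days (log2 fold change 2.28, implied standard error 0.45, adjusted p = 2.55e-05 in the authors' deposited table). It stood above its deposited levels of 125 in Controls and 43.5 in NG 1-Day. At chromosome 2, 38545396 to 38547565, another rise reached 87.9 in NG 7-Days, against 32.6 in NG 5-Days, below its deposited levels of 413 in Controls and 258 in NG 1-Day. These 3 were singled out after their values were seen.

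Rises were a larger share of tested transcripts in short loci than in long ones. Among tested transcripts with a locus under 2 kb, 262 of 5699 rose (4.60%), among those of 2 to 5 kb 184 of 7877 (2.34%) and among those of 5 kb or more 56 of 6333 (0.884%) in the authors' deposited table. Over all tested transcripts the called falls showed no such gradient: the shares were 1.56%, 2.27% and 1.56% in the same order, which are 89, 179 and 99 falls. Without regard to the call, shares at least 2-fold lower on the log2(level + 1) scale did decrease with length, at 1.12%, 0.736% and 0.411%. The shares at least 2-fold higher were 3.76%, 1.08% and 0.584%. Among tested transcripts with a mean level of at least 5, called falls were also fewer in long loci, with 2.35% under 1 kb, 3.27% at 1 to 2 kb, 2.20% at 2 to 5 kb, 65 of 4322 transcripts at 5 to 10 kb and 1 of 283 (0.353%) at 10 kb or more. The median locus length was 1.89 kb for the rises, 3.41 kb for the falls and 3.49 kb for all tested transcripts. Of the calls in loci under 2 kb, 74.6% were rises, and of those in loci of 5 kb or more 36.1% were. In the finest classes rises made up 4.37% under 1 kb, 4.77% from 1 to 2 kb, 0.923% from 5 to 10 kb and 0.266% from 10 kb upward, where 1 of 376 tested transcripts rose and 2 fell.

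**Figure D3:**
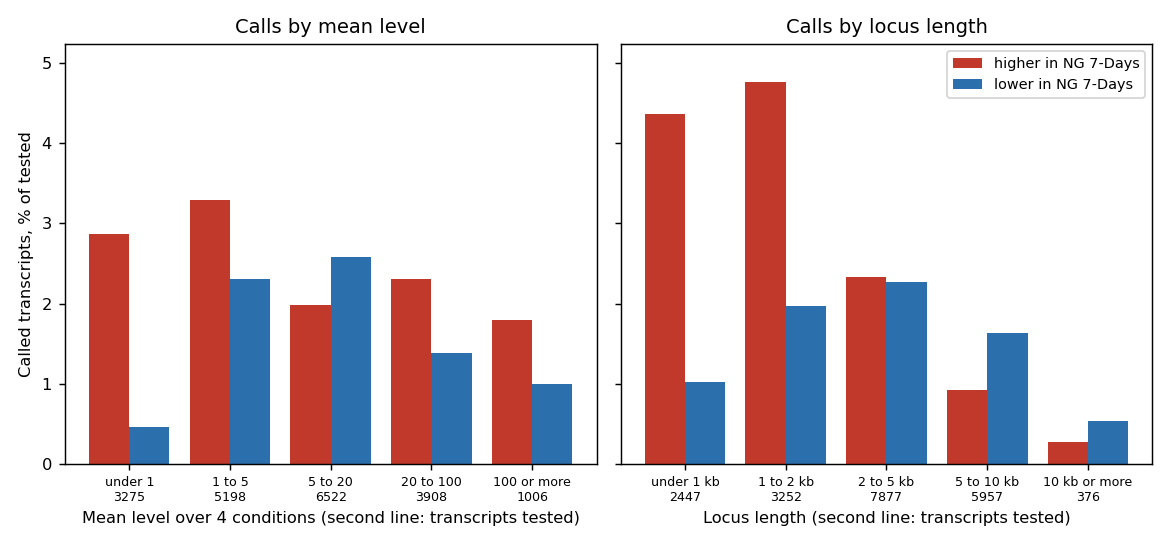
Share of tested transcripts called higher (red) and lower (blue) in NG 7-Days, by mean level over the 4 conditions in deposited units (left) and by locus length (right); the number under each class is the transcripts tested. Called rises go from 4.37% under 1 kb to 0.266% at 10 kb or more, and called falls outnumber them at levels of 5 to 20 and in loci of 5 kb or more.

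Short loci also had lower levels and larger errors. The median mean level was 2.93 under 2 kb and 11.2 at 5 kb or more, and the median implied standard error 0.46 and 0.29. The length gradient was therefore looked at within classes of level. From 1 to 5 the rises were 4.91% of tested transcripts under 2 kb and 1.64% at 5 kb or more. From 5 to 20 the shares were 5.22% and 0.595%, from 20 to 100 they were 7.41% and 0.650%, and from 100 upward 3.04% and 0.446%. Under a level of 1 the order differed, with 2.80% under 2 kb, 3.53% at 2 to 5 kb and 1.57% at 5 kb or more. Falls were also more frequent in the short loci from a level of 5 upward. They were 3.01% under 2 kb and 1.82% at 5 kb or more from 5 to 20, 2.93% and 1.00% from 20 to 100, and 2.17% and 0% from 100 upward, where 5 of 230 and 0 of 224 fell. Below a level of 5 called falls had the opposite order, with 1.08% under 2 kb and 2.38% at 5 kb or more from 1 to 5, and 0.249% and 0.787% under 1. There the median error asked for a larger change in short loci, 2.67-fold against 2.20-fold from 1 to 5 and 4.49-fold against 3.99-fold under 1. The shares at least 2-fold lower on the log2(level + 1) scale were not reversed, at 1.02% and 0.656% from 1 to 5 and 0.311% and 0.197% under 1. These differences were not tested.

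**Figure D4:**
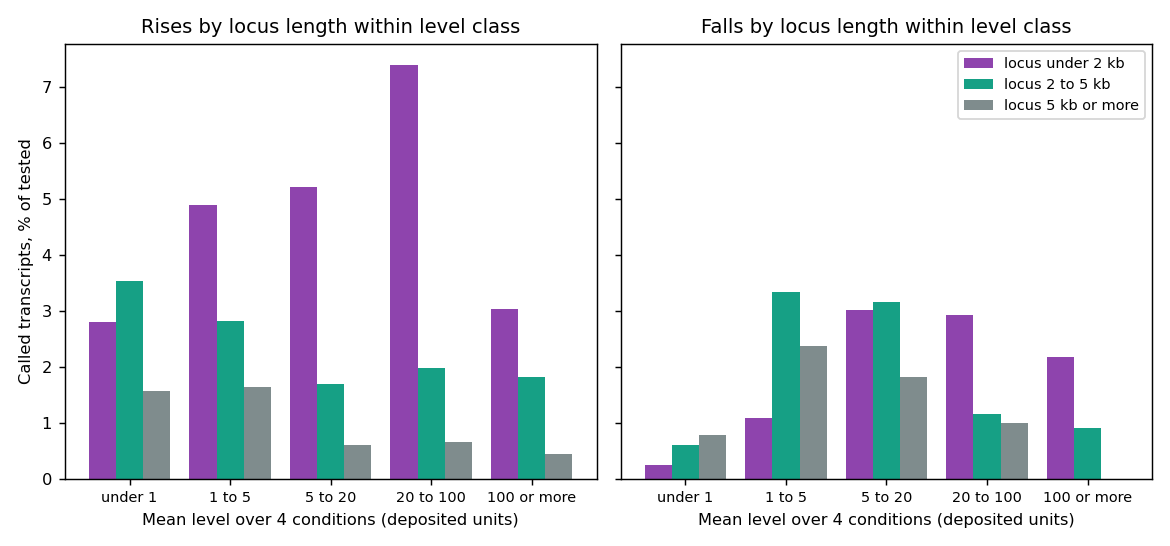
Share of tested transcripts called higher (left) and lower (right) in NG 7-Days, by locus length within each class of mean level (deposited units). Called rises are most frequent in loci under 2 kb in each class from 1 upward, with 7.41% at levels of 20 to 100. Called falls are more frequent under 2 kb than at 5 kb or more from a level of 5 upward and less frequent below it.

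Some loci are listed for more than 1 transcript, and there the table's values may be less certain. Whether reads of overlapping transcripts were divided between them was not tested. Of the tested transcripts, 1882 share their listed locus with another. Of these 1.54% were called, against 4.66% of the 18027 with a locus of their own. The median implied standard error was 0.44 with a shared locus and 0.33 with an own one, and the shares at least 2-fold higher were nearly equal, 1.65% and 1.69%. Transcripts with a shared locus also had longer listed loci, with a median of 6.53 kb against 3.21 kb. A shared listing gives the same length to each of its transcripts, so it need not be the length of any one of them. The median mean level of transcripts with a shared locus was lower, 4.79 against 7.30. The parts of length, level and sharing in the difference in calls were not tested. No shared locus had more than 1 call. Without these transcripts the rises were 4.60% under 2 kb and 0.935% at 5 kb or more.

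Differences between chromosomes were not tested. Rises ranged from 1.65% of tested transcripts on chromosome 10 to 3.60% on chromosome 8, and falls from 1.31% on chromosome 4 to 2.39% on chromosome 9. Rises were 67.6% of calls on chromosome 4 and 47.8% on chromosome 10. In windows of 5 Mb with fewer than 50 tested transcripts, 2.29% rose and 0.665% fell, and in windows with 200 or more, 2.35% rose and 2.05% fell. The median mean level was 5.07 in the sparse windows and 7.47 in the dense ones.

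The window with the highest share of rises, among the 112 with at least 30 tested transcripts, ran from 10 to 15 Mb on chromosome 9, where 8 of 51 rose (15.7%) and 0 fell. Over all tested transcripts 2.52% rose and 1.84% fell. The window's median mean level was 2.18 and its median locus length 2.29 kb, against 6.99 and 3.49 kb over all tested transcripts. The parts of level and length in its share were not tested. The authors' deposited table has 1 abundant transcript among the 8, at 10669047 to 10670371, with 113 in NG 7-Days and 49.0 in NG 5-Days. Its 7 companions had levels of at most 8.40 in NG 7-Days. Those at 10624065 to 10627833 and 10639633 to 10640798 lay close to the abundant transcript. An adjacent pair among the 7, at 12875931 to 12878220 and 12883853 to 12886217, stood at 0.736 and 0.796 in NG 7-Days, against 0.129 and 0.124 in NG 5-Days. The window with the highest share of falls ran from 20 to 25 Mb on chromosome 8, where 4 of 72 fell (5.56%) and 1 rose. Windows of 2 Mb were ranked with the same minimum of 30 tested transcripts, so sparse stretches can drop out of that ranking. Their highest share of rises was 12.1%, 12 of 99, at 54 to 56 Mb on chromosome 4. That window holds the run of 5 rises at 55948439 to 55983971 described below.

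Called transcripts formed 8 runs of at least 3 adjacent tested transcripts in 1 direction, 7 of rises and 1 of falls, with 29 transcripts in all. The run on chromosome 11, 42019980 to 42044327, holds 5 transcripts with loci of 0.619 to 0.764 kb, among them PGSC0003DMG400015531, and 1 untested transcript. Its summed deposited level was 21.6 in Controls, 28.0 in NG 1-Day, then 5.83 in NG 5-Days and finally 32.6 in NG 7-Days. Each of the 5 was higher in NG 7-Days, by 3.24-fold to 95.6-fold. Whether members of a run are similar copies that share reads is not known here.

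On chromosome 4, 55948439 to 55983971, 5 transcripts with loci of 1.11 to 1.17 kb rose by 1.97-fold to 3.46-fold. Their summed deposited level was 114 in Controls, 48.5 in NG 1-Day, then 60.4 in NG 5-Days and finally 164 in NG 7-Days. This run was low in both earlier NG conditions, unlike that on chromosome 11, whose sum was low in NG 5-Days alone. On chromosome 9, 46217009 to 46281143, 4 transcripts, with 4 untested ones in the span, rose by 4.25-fold to 26.0-fold. Their summed deposited level was 5.61 in Controls, 0.986 in NG 1-Day, then 1.04 in NG 5-Days and finally 11.4 in NG 7-Days. The steepest by its median was on chromosome 7, 516050 to 530439, where 3 transcripts rose by a median of 12.4-fold, with levels of 0.903 to 5.60 in NG 7-Days and 0.122 to 0.300 in NG 5-Days by the deposited levels.

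The remaining runs of rises held 3 transcripts each. That on chromosome 1, 59454544 to 59459122, had a summed deposited level of 19.4 in NG 7-Days and 3.16 in NG 5-Days. That on chromosome 3, 19449193 to 19460340, had 15.8 in NG 7-Days and 2.83 in NG 5-Days, and that on chromosome 10, 51475685 to 51487501, had 9.54 in NG 7-Days and 1.56 in NG 5-Days. A single run of falls, on chromosome 6, 37075758 to 37125318, with 2 untested transcripts in the span, had a summed deposited level of 1.00 in Controls, 0.715 in NG 1-Day, then 8.22 in NG 5-Days and finally 1.75 in NG 7-Days. It was high in NG 5-Days alone. With all transcripts kept in the order of neighbours, 6 runs were counted, each of rises.

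**Figure D5:**
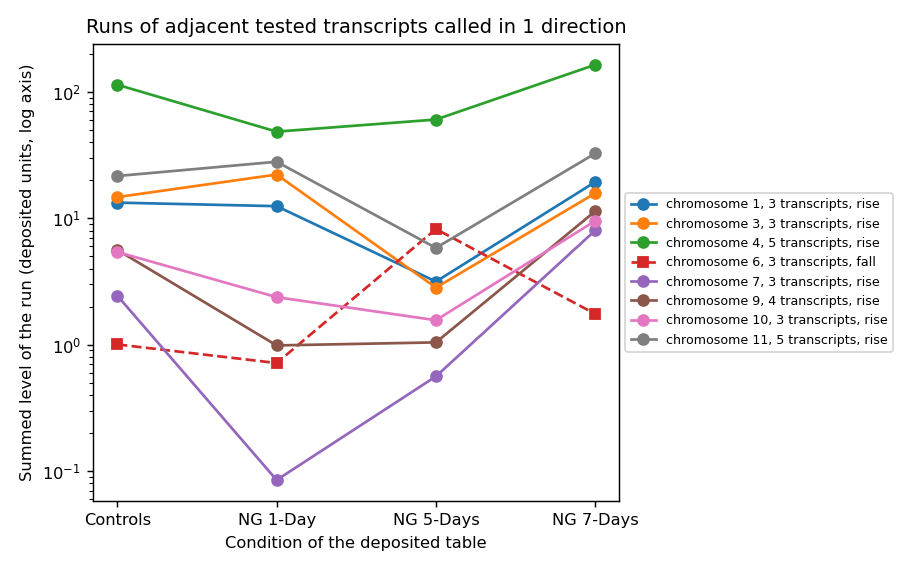
Summed deposited level (log axis) of each of the 8 runs of adjacent tested transcripts called in 1 direction, in the 4 conditions of the table in time order; solid lines are rises and the dashed line is the fall. The chromosome 11 run dips to 5.83 in NG 5-Days, the chromosome 4 run is low in both earlier NG conditions, and the chromosome 6 run peaks at 8.22 in NG 5-Days.

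Many large late rises were outside the test. The authors' deposited table marks 795 transcripts that reach a level of 5 in either late condition as not tested, and of these 357 were at least 2-fold higher and 32 at least 2-fold lower in NG 7-Days on the log2(level + 1) scale. Their median level was 19.8 in NG 7-Days, against 11.6 in NG 5-Days. Among the 12047 tested transcripts of that level, 208 were at least 2-fold higher and 127 lower. The lines not tested still carry p-values, of which 5630 of 15136 are below 1. Over all 15136, 478 higher and 72 lower transcripts had one at or below the highest p called. Among the 795 these were 374 higher and 72 lower. The sources used here do not give the rule by which the table left them untested.

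The greatest untested rise lay at chromosome 1, 76783035 to 76783647. The authors' deposited table has it at 32.0 in NG 7-Days, against 0.712 in NG 5-Days, and at 11.2 in Controls and 1.16 in NG 1-Day. The next, at chromosome 2, 31970235 to 31971642, was at 26.4 in NG 7-Days, against 0.637 in NG 5-Days, and at 35.4 in Controls and 29.4 in NG 1-Day. The greatest untested fall lay at chromosome 4, 63592371 to 63597370. It was at 0.379 in NG 7-Days, against 7.72 in NG 5-Days, and at 6.55 in Controls and 12.2 in NG 1-Day by the deposited levels. Its change of -2.66 on the log2(level + 1) scale had a deposited p of 0.362 and an implied standard error of 4.77 on the plain log2 scale, and it exceeded that of every called fall. The 3 transcripts given here by position were singled out after their values were seen. Untested lines repeated the length pattern in part, with 198 of the 396 in loci under 2 kb at least 2-fold higher (50%). In loci of 2 to 5 kb 126 of the 298 were (42.3%), and in loci of 5 kb or more 33 of the 101 (32.7%). The shares at least 2-fold lower had the same order, 5.30%, 3.02% and 1.98%.

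Transcripts listed at 0 in 1 late condition had low levels in the other. There were 1192 at 0 in NG 5-Days and above 0 in NG 7-Days, with a median of 0.0286 in NG 7-Days and 8 at 1 or more. The reverse held for 478, with a median of 0.0369 in NG 5-Days and 3 at 1 or more. Of the 57 and 15 that were tested, 3 and 0 were called in the authors' deposited table, and no fold is given for them. A further 9519 transcripts were listed at 0 in both.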

How the data were processed

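RNA sequencing of tuber discs was analysed from 1 table in which the authors had combined their libraries into 1 value per condition; the layout is that of Cuffdiff, per the file headers. The deposited levels are values whose unit the header does not name (this layout usually holds FPKM). The authors deposited p-values and adjusted p-values (q-values) for each line. Benjamini-Hochberg adjustment of the 118862 tested lines of all 6 comparisons gave the deposited values to within 3.32e-06. The sources used here name no software version, genome build or filter; coordinates were used as deposited. Since depth is unknown, no interval or floor that rests on it is given, and whether libraries came from separate tubers is not stated.

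Changes were computed as log2((NG 7-Days + 1)/(NG 5-Days + 1)), without HIDATA lines, in Python 3.11.15 with pandas 2.3.3, NumPy 2.4.6, SciPy 1.17.1 and Matplotlib 3.10.9. The planned per-library test could not be run, so the authors' test at an adjusted p under 0.05 was used. Levels, lengths (locus end minus start, plus 1), windows and runs were tabulated, and the code was tested on simulated data. Named transcripts are the 2 greatest rises and falls with a call that reach a level of 5 in either condition, since 0 identifiers matched the 32873 genes of the reference table. Members, classes and rules were chosen with earlier results of these data known. Errors per condition were solved from the 6 lines of 19708 transcripts, an alternative added after the data were seen, like that on shared loci.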

Additional observations from a re-analysis of the deposited data

How the results depend on the processing

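The table has 1 value per condition, so no library could be left out. No paired analysis was possible because the columns carry no replicate. Of the 57 values under an alternative setting, 34 stayed in range and 23 moved. The only medians among them, of called transcripts past 2-fold in NG 1-Day against Controls, kept their sign, at -0.38 for rises and -0.51 for falls. On log2(level + 5) the majority of calls went to falls (385 rises, 469 falls). The highest share of rises in a window counted as in range, but its place went from chromosome 9 to chromosome 4 with windows of 2 Mb. The 502 rises and 367 falls became 289 and 160 at an adjusted p under 0.01, and 280 and 128 when 2-fold was also asked for. With untested lines adjusted along, over the late pair alone, there were 963 rises and 426 falls. Adjusted alone there were 443 and 300, and after median centring 532 and 326. The 778 and 181 transcripts past 2-fold became 1626 and 608 with a pseudocount of 0.1, 358 and 51 with one of 5, 1641 and 1044 past 1.5-fold, 187 and 2 past 4-fold, and 336 higher among tested lines. With classes set by the level in Controls, falls were 1.04% under 1, 2.96% from 1 to 5 and 2.06% from 5 to 20. With a mean level of at least 5, rises were 6.83% under 1 kb, 1.81% at 2 to 5 kb and 0.625% at 5 to 10 kb, and falls 2.35% under 1 kb and 3.27% at 1 to 2 kb. Of the falls past 2-fold, 10.4% were called lower in NG 1-Day than in Controls, against 16.1% of all falls. The cause was not tested in any of these. The depth behind the levels is unknown.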
